A study of Mus musculus with 48 samples.

Results

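Mouse chromosomes are telocentric: the centromere lies at one end, and the reference sequence of each autosome begins only after a block of unsequenced bases that stands for it. The loci described here are the MBD-seq regions that start in the first sequenced stretch next to that end, that is, on chromosomes 1 to 19 at positions below 4000000. Chromosome 9 regions below 3200000, of which there are 12 and which include a large satellite array, were left out. This position rule, which uses no measured value, gave 1328 of the 187695 regions in the count table, with 34 to 126 per autosome. The other autosomal regions, 180621 with that array and 180620 without it, gave the comparison set, from which the array was left out.

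DNA methylation was profiled in the amygdala of 48 adult male mice of C57BL/6 background (backcrossed to C57BL/6N), aged 4 months. The mice were wildtype (Tph2+/+), heterozygous (Tph2+/-) or null mutant (Tph2-/-) for tryptophan hydroxylase 2, the rate-limiting enzyme of serotonin synthesis in the brain, through a constitutive inactivation of the gene. In each genotype 8 mice came from control litters (C) and 8 had been exposed to maternal separation (MS) each day for 3 h, from day 2 to day 15 after birth, and groups are named by genotype and rearing, as in Tph2+/+ C and Tph2+/+ MS. All offspring came from heterozygous parents and were housed singly from weaning and went through behavioral tests, and homogenized tissue was used, so that cell types cannot be told apart. The values are read counts of DNA fragments bound by a methyl-CpG-binding domain, given here as CPM, that is, counts per 1000000 counts of a library, after scaling of the 48 libraries with the TMM method.

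Centromeric and pericentromeric DNA of the mouse consists of minor and major satellite repeats, which are heavily methylated in somatic cells and packed into constitutive heterochromatin. The sequenced DNA next to it is rich in segmental duplications, transposon remnants and short tandem repeats, and holds both gene families in several copies and ordinary single-copy genes. An MBD capture reads out the density of methylated CpG together with the number of genomic copies that map to a region.

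Sequences from several of the chromosome-end loci are shown first, all from the GRCm38.p6 reference, plus strand, 5′ to 3′, with CpG dinucleotides in capitals. The 21-base unit is the most frequent exact unit, in counts pooled over loci, of a tandem repeat found at the ends of several autosomes. Taken singly, 3 of the 21 chromosome-end loci of this period had it as their most frequent unit. The stretches from chromosome 3 (chr3:3001320-3001403) and chromosome 4 (chr4:3051451-3051534) each cover 4 units, matching it at 85.7% and 92.9% of bases, from the loci nearest to the end on these chromosomes. The chromosome 12 stretch (chr12:3109872-3110041) is the part of the most abundant locus in which every consecutive 21-mer also occurs in the chromosome 9 satellite array, although the whole stretch does not occur there as 1 exact run. The chromosome 10 pair (chr10:3111839-3111986) holds 2 consecutive identical 74-base units of a locus that varied strongly between libraries. The windows from chromosome 16 (chr16:3245047-3245246) and chromosome 6 (chr6:3300958-3301157) are the 200 bases with the most CpGs, 7 and 5, in the 2 chromosome-end loci that passed the adjusted test for MS.
unit: acaccacagtggagcactgtg
chromosome 3: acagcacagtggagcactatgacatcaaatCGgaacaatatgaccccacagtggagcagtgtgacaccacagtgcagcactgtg
chromosome 4: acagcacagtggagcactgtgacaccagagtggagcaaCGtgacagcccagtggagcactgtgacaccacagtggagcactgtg
chromosome 12: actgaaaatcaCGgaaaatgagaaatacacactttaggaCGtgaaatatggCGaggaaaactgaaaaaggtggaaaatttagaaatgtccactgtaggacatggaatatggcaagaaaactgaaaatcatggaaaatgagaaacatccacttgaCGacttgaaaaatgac
chromosome 10: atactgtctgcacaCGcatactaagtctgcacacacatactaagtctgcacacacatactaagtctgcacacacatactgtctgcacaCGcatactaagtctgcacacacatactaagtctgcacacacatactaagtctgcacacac
chromosome 16: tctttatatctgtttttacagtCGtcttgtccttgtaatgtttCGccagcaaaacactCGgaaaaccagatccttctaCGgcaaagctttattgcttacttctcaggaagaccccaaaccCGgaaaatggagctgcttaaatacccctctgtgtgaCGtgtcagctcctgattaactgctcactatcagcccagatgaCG
chromosome 6: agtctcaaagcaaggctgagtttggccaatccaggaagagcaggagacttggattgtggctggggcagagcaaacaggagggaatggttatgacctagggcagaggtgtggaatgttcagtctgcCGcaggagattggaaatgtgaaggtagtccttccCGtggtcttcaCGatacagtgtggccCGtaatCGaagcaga

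The chromosome-end loci were more repetitive than other autosomal loci but similar in CpG content and read density. Of the 1328 loci, 338 (25.5%) had a copy of at least 95% identity over at least 50% of their length elsewhere in the reference, against 6.54% of the other autosomal loci. How reads that fit several copies were counted is not stated, so that levels of these loci may include reads of their copies. Their median repeat-masked share was 44.2% against 22.3%. The median CpG density was 18.8 per kb against 17.96 per kb, the median width 947 bases against 915, and the median read density 30.8 counts per kb and library against 29.4. They lay less often inside genes by the midpoint of the locus, with 30.9% in introns against 42.4% and 54.3% between genes against 44.4%, while the share in coding exons was 8.58% in both. An annotated transcription start site was within 1000 bases in 7.003% of the chromosome-end loci and 5.19% of the others. Tandem repetition, as a self-match of at least 50% at a period of 20 to 300 bases, was found in 80 loci (6.02%) against 2.44%. The binding motif of the centromere protein CENP-B, searched as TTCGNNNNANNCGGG on both strands, was present in 1 chromosome-end locus (0.0753%) and in 0.0770% of the others, and no chromosome-end locus held 3 consecutive TTAGGG units of the telomere repeat on either strand, against 0.0260% of the others.

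Copies elsewhere were most frequent next to the first sequenced base, and the median repeat-masked share was 61.1% within 100000 bases, 62.6% from there to 250000 bases and 32.1% between 500000 and 750000 bases. Within 100 kb of it 83 loci (53.2%) had a copy elsewhere and 9.62% lay in genes. Between 500000 and 750000 bases 47 of 311 (15.1%) had a copy and 60.8% lay in genes. The neighboring autosomal loci 1000000 to 2000000 bases from the end, which are all outside the position limit, gave 13.1% with a copy, so that the excess was largest in the first bin and small beyond 500000 bases. The median read density was 35.5 counts per kb within 100 kb and 29.7 counts per kb between 500000 and 750000 bases, and the median CpG density was 18.2 and 18.8 per kb.

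**Figure D1:**
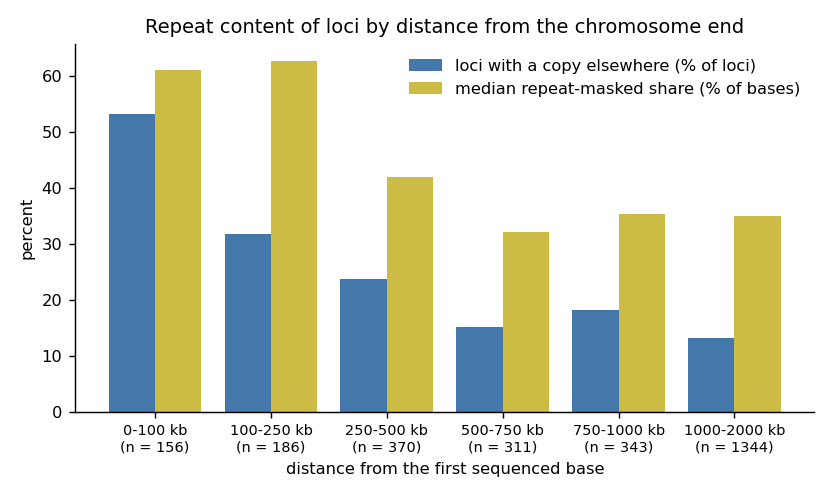
Share of autosomal loci with a copy elsewhere in the reference (blue, percent of loci) and median repeat-masked share of their bases (yellow, percent) in 6 bins of distance from the first sequenced base, with the number of loci in each bin; chromosome 9 loci below 3200000 are left out. The copy share goes from 53.2% in the first bin to 13.1% in the last.

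The autosomes differed in this respect. On chromosome 14, 78 of 80 loci (97.5%) had a copy elsewhere. Chromosome 16 followed with 40 of 73 (54.8%), chromosome 4 with 30 of 80 (37.5%) and chromosome 6 with 21 of 64 (32.8%), so that these 4 chromosomes held 169 of the 338 loci with a copy. Chromosomes 2 and 11 were lowest, with 3 of 70 (4.29%) and 4 of 69 (5.80%). Chromosome 11 had 55 of its 69 loci in annotated genes and chromosome 19 had 96 of 126, whereas chromosome 3 had 55 loci and 0 of them in a gene. On 13 of the 19 autosomes the locus nearest to the end started within 10 kb of the first sequenced base, and on chromosomes 2, 4 and 11 it began in the unsequenced block itself.

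All 48 libraries had between 7724481 and 14133801 counts in total. The chromosome 9 array took 13.99% to 26.6% of a library's counts, and the chromosome-end loci together took 1.10% to 1.32%. The sample numbers in the labels never mix rearing conditions. C libraries carry numbers 1 to 17 and 42 to 48 and MS libraries 18 to 41, and what the numbers record is not stated. Differences between C runs and MS runs of these numbers therefore cannot be told apart from rearing. Runs within C, or within MS, share their rearing. The 9 libraries numbered 18 to 26 stood apart from the others at several of the loci described below. Replicates 3 and 7 of Tph2-/- MS, which had the smallest totals in that group, were left out of the fits, since the study had left out 2 libraries of this group, which are not named in the sources used here.

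The summed level of the chromosome-end loci overlapped between the 6 groups. In Tph2+/+ mice it was 11742 CPM ± 266 (SD, n = 8) for C and 12146 ± 934 for MS. In Tph2+/- mice the values were 12210 ± 884 and 11668 ± 598, and in Tph2-/- mice 11774 ± 444 and 13021 ± 2734. The groups overlapped throughout, and the high mean and spread of the last group came from replicate 3, at 19288 CPM, which was not in the fits. This value depends on the scaling factor: the same library had the lowest share of its counts at these loci of all 48, 1.10%, and 20210 CPM with the size factors of DESeq2. As unscaled shares of a library's counts the means were lower in MS than in C in each genotype, at 1.17% against 1.24% in Tph2+/+, 1.21% against 1.22% in Tph2+/- and 1.17% against 1.22% in Tph2-/-, so that the order of C and MS in Tph2+/+ and Tph2-/- depends on the scaling. Only 4 loci made up 38.7% to 49.2% of the counts of all 1328, and without them the mean over 48 libraries was 6696 CPM in place of 12094.

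The most abundant locus was chr12:3109342-3111511, which lies between genes 109341 bases from the first sequenced base. It had a mean of 27692 counts per library, or 21.4% of all counts at the chromosome ends, although it spans 2170 bases and its CpG density of 17.1 per kb was below the median of the set. It was the member with most of its sequence shared with the satellite array, with 9.77% of its 21-mers found there, and only chr11:3099870-3106138 and chr4:3089171-3092218 shared any others. The lowest, median and highest levels were 2145, 2282 and 2787 CPM in Tph2+/+ C and 2394, 2755 and 3530 CPM in Tph2+/+ MS. In Tph2+/- C they were 2324, 2697 and 3701 CPM, and in Tph2+/- MS 1918, 2250 and 3149 CPM. The values of Tph2+/+ libraries were thus mostly higher after MS and those of Tph2+/- libraries mostly lower, with overlap in both genotypes. In Tph2-/- the values were 2006, 2547 and 2885 CPM in C and 1845, 2759 and 5884 CPM in MS, with overlap and a fold change of 0.04 on the log2 scale (SE 0.10, edgeR adjusted p = 0.952).

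The chromosome 12 locus followed the chromosome 9 array from library to library. Over the 48 libraries Pearson's r of the log2 levels was 0.964 (permutation p = 1e-05, the smallest 100000 permutations can give; adjusted p = 2e-05 over 4 relations) and Spearman's rho was 0.939 (permutation p = 1e-05; adjusted p = 2e-05). Without the 2 libraries farthest from the median of the array r was 0.939, it was 0.938 within C and 0.976 within MS, and within the 4 runs of sample numbers it was between 0.925 and 0.993. The other loci that share 21-mers with the array had weaker correlations, with r of -0.0459 (permutation p = 0.753, adjusted p = 0.888) for the chromosome 11 locus and 0.0207 (permutation p = 0.888, adjusted p = 0.888) for the chromosome 4 locus. Their rho was 0.107 (permutation p = 0.467, adjusted p = 0.591) and 0.0790 (permutation p = 0.591, adjusted p = 0.591). Without the 2 farthest libraries these r were 0.229 and 0.258, within C they were 0.495 and 0.386, within MS -0.0077 and 0.0641, and over the runs of sample numbers they ranged from -0.0151 to 0.596 and from 0.00305 to 0.630. All these libraries share the scaling factor of each library, which enters both values of a pair.

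**Figure D2:**
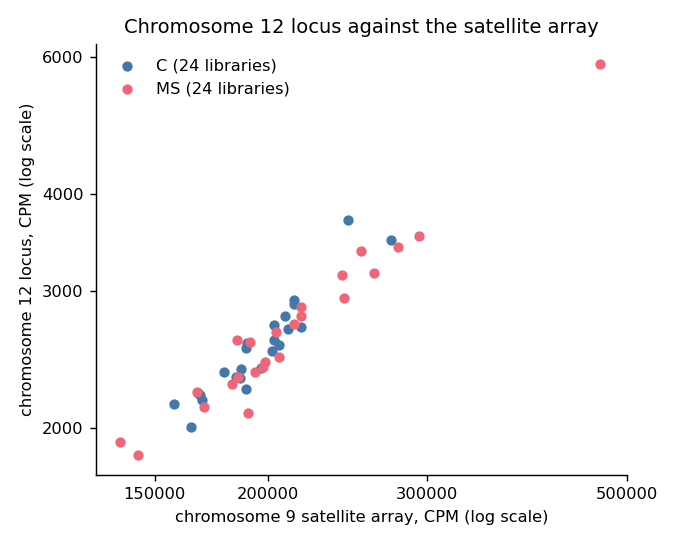
Level of the chromosome 12 locus against that of the chromosome 9 satellite array, both in CPM on log axes, with 1 point per library (blue for 24 C, red for 24 MS libraries). The points lie along 1 line (r = 0.964), and the library at the upper right is Tph2-/- MS replicate 3 at 5884 CPM.

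The next most abundant loci were a wide pair at Sfi1, which encodes a protein of the centrosome. Their midpoints lie in introns of this gene, and how much of its exons they also cover was not determined. The locus chr11:3126535-3180532, the widest of the set at 53998 bases, had a mean of 14533 counts, and chr11:3180545-3200326 had 9646. Their CpG densities of 9.26 and 10.01 per kb were below the median of 18.8. The wider locus was at 1430 CPM ± 183 in the 24 C libraries and 1248 ± 156.4 in the 24 MS libraries, while its neighbor was at 883 ± 76.9 and 922 ± 280. The difference of the wider locus for MS over genotypes was -0.19 on the log2 scale (SE 0.05, edgeR adjusted p = 0.150), below the study's fold limit, and that of the neighbor 0.03 (SE 0.08, edgeR adjusted p = 0.933). The neighbor was at 1166 CPM ± 330 in libraries 18 to 26 and at 776 ± 72.1 in the other MS libraries. By counts per kb the 5 densest loci were the chromosome 12 locus, chr10:3110860-3117619, chr10:3109025-3110577, the narrower Sfi1 locus and chr6:3200331-3202810, with 12761, 795, 698, 488 and 382 counts per kb.

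The 2 chromosome 10 loci, built of short tandem units, varied together, with r of 0.990 and rho of 0.989 over the 48 libraries. Pearson's r was 0.988 without the 2 farthest libraries and 0.964 to 0.996 within the runs of sample numbers. The loci lie side by side (3109025-3110577 and 3110860-3117619). Both were picked for their read density and for their difference between C libraries 42 to 48 and 1 to 17. Their joint variation is therefore a description, and p-values for it, the last of the 4 relations, are left out. At chr10:3110860 the lowest, median and highest levels were 236, 401 and 527 CPM in the C libraries numbered 1 to 17 and 516, 719 and 1037 CPM in those numbered 42 to 48. In the MS libraries numbered 18 to 26 they were 95.3, 282 and 699 CPM, and in those numbered 27 to 41 they were 316, 659 and 862 CPM. The early and the late C libraries thus hardly overlapped, and libraries 18 to 26 had the lowest median, with values from below the early C range to within the late one. The CpG-dense locus chr6:3200331, with 35.5 CpG per kb, showed the opposite order, with a median of 133.3 CPM in libraries 18 to 26 and of 71.8, 59.4 and 67.9 CPM in libraries 1 to 17, 27 to 41 and 42 to 48.

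A 21-base tandem repeat was more frequent at the chromosome ends than elsewhere. The period of best self-match was 21 bases, at 54.3% to 71.9% match, in 21 of the 1328 loci (1.58%) and in 51 of the other autosomal loci (0.0282%). They lay on chromosome 17 (11 loci between 3006446 and 3036886), chromosome 3 (5 loci), chromosome 4 (4 loci) and chromosome 16 (1 locus), all within 231423 bases of the first sequenced base. The exact unit shown above, in any phase and on either strand, occurred in 25 chromosome-end loci (1.88%), 20 of them of this period, and in 4 other autosomal loci (0.00221%). The unit holds 0 CpG even across its junction, and the 21 loci had a median of 5.53 CpG per kb, with 2.62 to 10.7 per kb. Their median read density was 26.7 counts per kb, near the lower quartile of all chromosome-end loci, 26.4. The locus with the lowest density of the set, chr3:3005687-3006458 with 16.6 counts per kb, was 1 of them.

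The level of these repeat loci differed between the runs of sample numbers. Their summed level had a lowest, median and highest value of 177, 262.6 and 382 CPM in C libraries 1 to 17, and of 300.2, 343 and 389 CPM in C libraries 42 to 48. In MS libraries 18 to 26 these values were 90.6, 178 and 385 CPM, and in MS libraries 27 to 41 they were 193, 319 and 414 CPM. The libraries 18 to 26 had the lowest median, although their highest value was within the range of the late C libraries. The late C libraries were all above the median of the early ones. In the fit of late against early C libraries, with genotype as a covariate, all 21 loci had a positive fold change, whereas 49.8% of all loci had a negative one. Their median was 0.33 on the log2 scale against 0.00 for all loci. Of the 21 loci, 10 met the study's limits, all 10 of them higher in late libraries, where 1.45% of all loci were called higher. Of the 51 other autosomal loci of this period 3 were called, with a median fold change of 0.10. The 21 loci share a repeat and lie on 4 chromosomes, so that they are not separate observations. For MS over genotypes 18 of the 21 had a negative fold change, where 49.6% of all loci had, with a median of -0.11 and 0 called (all loci 3.63%). Without libraries 18 to 26, however, 0 of the 21 were negative, with a median of 0.18 and 1 called (all loci 1.26%).

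**Figure D3:**
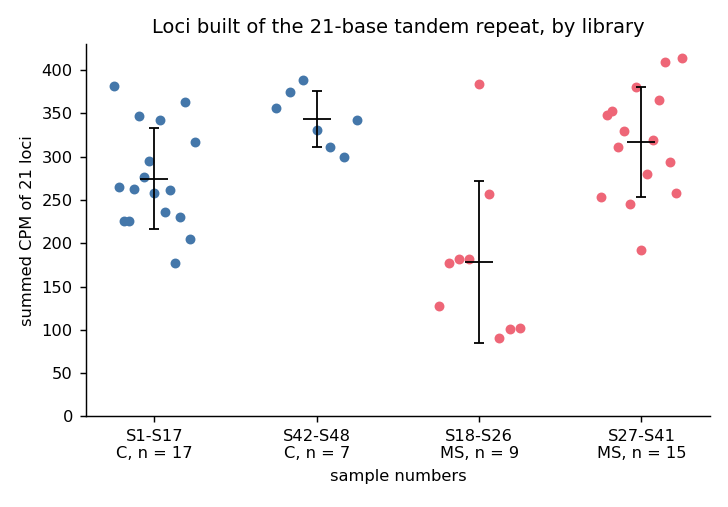
Summed level, in CPM, of the 21 chromosome-end loci built of the 21-base tandem repeat, by run of sample numbers (blue for C, red for MS), with 1 point per library and black bars for mean and SD. The MS libraries 18 to 26 have a median of 178 CPM, against 262.6, 343 and 319 CPM in the other runs.

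Over all chromosome-end loci, late and early C libraries differed at 67 of 1328 (5.05%) by the study's limits (p under 0.01 without adjustment, and more than 0.2 up or down in log2 fold change), where 3.29% of all loci were called, with 35 higher (all loci 1.45%) and 32 lower (1.84%). At an adjusted p under 0.05 in edgeR's quasi-likelihood test 9 loci differed, where 0.167% of all loci did, and 5 of these were higher. The pair on chromosome 10 led with 0.84 (SE 0.09, adjusted p = 2.2e-09) and 0.79 (SE 0.09, adjusted p = 9.2e-08) on the log2 scale. A locus in an intron of Net1, which encodes an exchange factor for the GTPase RhoA, was higher (chr13:3900983-3903956, 0.54, SE 0.11, adjusted p = 0.00818). Lower were a locus in an exon of the predicted gene AC148174.2 (chr19:3205104-3206331, -0.72, SE 0.14, adjusted p = 0.00499) and a locus 911 bases from Lyn, a Src family kinase (chr4:3813459-3814608, -0.61, SE 0.13, adjusted p = 0.0164). The loci called higher had a median of 12.2 CpG per kb and those called lower of 25.3.

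The comparison of MS with C over the genotypes asks which loci differ after early-life separation. By the study's limits 60 of 1328 loci (4.52%) were called, where 3.63% of all loci were called. Of these, 36 were lower after MS (all loci 1.35%) and 24 higher (2.28%), a share of 60.0% lower against 37.1% among all called loci. The median fold change of the chromosome-end loci was -0.01 on the log2 scale, against 0.00 over all loci. Without libraries 18 to 26, 25 loci were called, 21 of them lower, where 1.26% of all loci were called and 59.1% of those were lower, and 10 of the 25 were among the original 60. With an offset for CpG density 53 were called, where 4.09% of all loci were, and 37.7% of them were lower against 13.8% among all called loci. With all 48 libraries 108 were called, where 5.79% of all loci were, and 37.96% of them were lower against 30.6%. The 36 lower loci had a summed mean of 215, 132, 183 and 220 CPM in libraries 1 to 17, 18 to 26, 27 to 41 and 42 to 48, and the 24 higher loci of 233, 376, 248 and 220 CPM. These sums were thus lowest or highest in libraries 18 to 26, which belong to the MS libraries by which the loci were called. The sums are therefore a description and no separate support. Among the lower loci chr11:3099870 and chr4:3089171, with mean levels of 71.9 and 33.6 CPM, weigh most in the sum, so that single loci may differ. The part of libraries 18 to 26 in the calls was not tested beyond leaving them out.

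The calls were spread over 16 autosomes, with 10 of 73 loci on chromosome 16, 8 of them lower, and 7 of 64 on chromosome 6. Of the 338 loci with a copy elsewhere 22 (6.51%) were called and of the 990 without a copy 38 (3.84%). Among other autosomal loci with a copy 7.42% were called. Within 250000 bases of the first sequenced base 23 of 342 loci (6.73%) were called, and farther away 37 of 986 (3.75%).

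**Figure D4:**
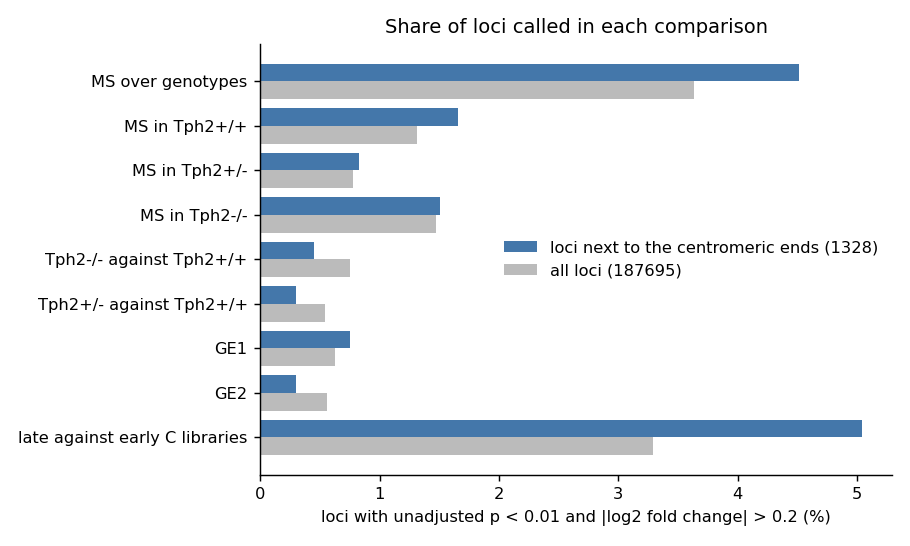
Percent of loci that met the study's limits in each comparison, for the 1328 chromosome-end loci (blue) and all 187695 loci (gray). For MS over genotypes the shares are 4.52% and 3.63%, and for late against early C libraries 5.05% and 3.29%.

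At an adjusted p under 0.05 over all loci 2 chromosome-end loci differed for MS over genotypes, where 0.0128% of all loci did, and both were lower after MS. The first, chr16:3244602-3245791, lies between genes, 4388 bases from the predicted gene Gm23215, has 13 CpGs and no copy elsewhere. Its lowest, median and highest levels in Tph2+/+ were 4.26, 5.26 and 7.38 CPM in C and 2.79, 3.69 and 7.18 CPM in MS. In Tph2+/- they were 4.68, 5.601 and 6.61 CPM in C and 2.87, 4.28 and 5.69 CPM in MS. In Tph2-/- they were 3.95, 4.88 and 7.43 CPM in C and 0.433, 3.21 and 5.41 CPM in MS. The medians were lower after MS in each genotype, and C and MS overlapped in each. The fold change was -0.48 on the log2 scale (SE 0.10, edgeR adjusted p = 0.0357), and it was -0.52, -0.41 and -0.52 within Tph2+/+, Tph2+/- and Tph2-/-. The mean level was 3.00 CPM in libraries 18 to 26 and 4.28 CPM in the other MS libraries, against 5.51 and 5.66 CPM in the early and late C libraries, and without libraries 18 to 26 the fold change was -0.34 (edgeR adjusted p = 0.632).

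The second, chr6:3300958-3301577, lies in an intron of the predicted gene Gm8579, has 9 CpGs, and has 6 copies elsewhere, so that reads of these copies may be counted in it. Its counts were low, between 0 and 34 per library. In Tph2+/+ its lowest, median and highest levels were 0.808, 1.84 and 2.73 CPM in C and 0.503, 1.11 and 2.53 CPM in MS. In Tph2+/- they were 1.503, 1.84 and 2.75 CPM in C and 0.286, 0.866 and 2.01 CPM in MS. In Tph2-/- they were 1.14, 1.71 and 2.36 CPM in C and 0, 0.909 and 1.48 CPM in MS. The medians again were lower after MS in each genotype, with overlap in each. The fold change was -0.90 (SE 0.19, edgeR adjusted p = 0.0484), and without libraries 18 to 26 it was -0.81 (edgeR adjusted p = 0.2999). A neighboring locus in the same gene, chr6:3298791-3299564, gave -0.77 (SE 0.17, edgeR adjusted p = 0.0656), and chr16:3120309-3121037 gave -0.78 (SE 0.17, edgeR adjusted p = 0.0546).

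**Figure D5:**
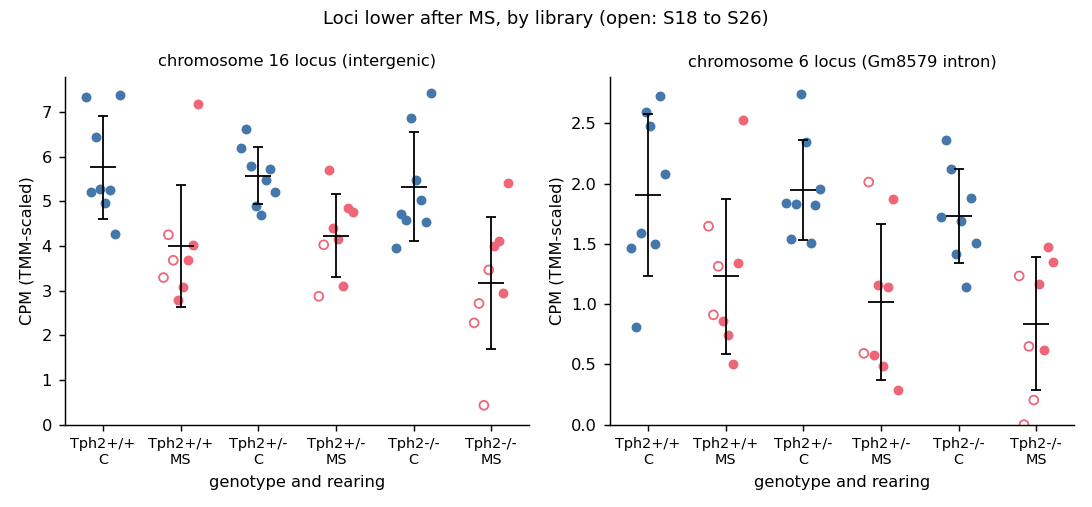
Levels of the 2 loci lower after MS, in CPM, by genotype and rearing, with 1 point per library (blue for C, red for MS, open for libraries 18 to 26) and black bars for mean and SD, n = 8 per group. The 2 Tph2-/- MS libraries left out of the fits are shown. Medians are lower in MS within each genotype, and the groups overlap.

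Within the genotypes 0 chromosome-end loci passed the adjusted test for MS in edgeR, where 0% of all loci did, and 0 passed it in DESeq2. By the study's limits 22 of 1328 loci were called in Tph2+/+ (all loci 1.31%), 11 in Tph2+/- (0.779%) and 20 in Tph2-/- (1.48%). An unadjusted p under 0.05 in edgeR was reached by 108, 50 and 98. These were 8.13%, 3.77% and 7.38% of the chromosome-end loci, against 6.52%, 4.36% and 7.11% of all loci. In Tph2+/+ 18 were lower after MS (all loci 0.643%) and 4 higher (0.670%), in Tph2+/- 6 lower (0.458%) and 5 higher (0.321%), and in Tph2-/- 13 lower (0.632%) and 7 higher (0.843%). The smallest p in Tph2+/+ was at chr15:3665493-3666289, between genes, with a lowest, median and highest level of 1.59, 2.11 and 2.94 CPM in C and 0.708, 0.953 and 1.58 CPM in MS. This locus was picked for its p in the same comparison, so that the distance between its C and MS levels is only a description. Its counts in this genotype were 7 to 40, and the edgeR adjusted p was 0.635 (log2 fold change -1.03, SE 0.26). In Tph2+/- chr16:3120309 and in Tph2-/- chr6:3298791 had the smallest p. Without libraries 18 to 26, 17 loci were called in Tph2+/+ (all loci 0.977%), 11 in Tph2+/- (0.848%) and 17 in Tph2-/- (1.18%). Of these, 10, 9 and 4 were among those called with libraries 18 to 26.

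For genotype 0 chromosome-end loci passed the adjusted test, where 0.0139% of all loci did for Tph2-/- and 0.00213% for Tph2+/-. Against Tph2+/+, 6 loci were called by the study's limits in Tph2-/- (all loci 0.748%), 5 higher (0.331%) and 1 lower (0.417%), and 4 in Tph2+/- (0.546%), 2 higher (0.266%) and 2 lower (0.280%). In edgeR 60 and 40 loci had an unadjusted p under 0.05 (4.52% and 3.01%, all loci 4.08% and 3.47%). The leading loci were chr9:3493636-3494702 next to the predicted gene Gm5362 and chr4:3333550-3334126, which have 4 and 8 copies elsewhere. DESeq2 gave 6 and 5 called loci by the study's limits (all loci 0.911% and 0.722%) and 0 at the adjusted limit. Without libraries 18 to 26, 9 loci were called for Tph2-/- (all loci 0.653%) and 7 for Tph2+/- (0.738%), of which 1 and 2 were among those called with them.

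The interactions compare the MS difference between genotypes: GE1 sets Tph2+/- and GE2 sets Tph2-/- against Tph2+/+. By the study's limits 10 loci were called for GE1 (all loci 0.626%), 6 higher (0.312%) and 4 lower (0.314%), and 4 for GE2 (0.558%), 1 higher (0.297%) and 3 lower (0.262%). Of the 1328 loci, 0 passed the adjusted test in edgeR, where 0% of all loci did for either, or in DESeq2. In edgeR 44 and 41 had an unadjusted p under 0.05 (3.31% and 3.09%, all loci 3.71% and 3.36%). GE1 was led by chr15:3665493 with 1.47 on the log2 scale (SE 0.36, edgeR adjusted p = 1). There the median was lower after MS in Tph2+/+, as given above, and higher in Tph2+/-, at 1.81 CPM in C and 2.20 CPM in MS. GE2 was led by chr1:3583857-3584649 in an intron of Xkr4, which encodes a member of the XK-related family of phospholipid scramblases, with 1.12 (SE 0.38, edgeR adjusted p = 1). Its medians were 2.43 CPM in C and 1.22 CPM in MS in Tph2+/+ and 1.62 and 1.45 CPM in Tph2-/-, with overlap in both. In the fit, which omits the left-out libraries of Tph2-/- MS, the log2 fold change for MS was -0.88 (SE 0.26) in Tph2+/+. It was 0.24 (SE 0.28) in Tph2-/-, less than its SE from no change. The Tph2-/- medians therefore do not show the small rise that enters GE2, and the reason for this difference was not tested. The same locus was a GE1 call with 1.33 (SE 0.37, edgeR adjusted p = 1). Without libraries 18 to 26, 13 loci were called for GE1 (all loci 0.766%) and 4 for GE2 (0.855%), of which 8 and 1 were among those called with them. The chromosome 12 locus was also among the GE1 calls with -0.54 (SE 0.13, edgeR adjusted p = 1), and the satellite array it follows had a mean share of 19.4% and 21.9% of counts in Tph2+/+ C and MS and of 21.4% and 19.1% in Tph2+/- C and MS.

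Of 13 listed genes at the chromosome ends, 11 held 110 of the loci, and 5 of these 110 were called for MS over genotypes by the study's limits, where 3.63% of all loci were, with 0 at an adjusted p under 0.05. Lrp5, a co-receptor of Wnt signaling on chromosome 19, held 31 loci with a summed level of 109 CPM ± 7.44 (SD over 48 libraries), and Cdk6, a kinase of the G1 phase of the cell cycle on chromosome 5, held 27 with 105.2 CPM ± 6.13. Cpt1a, which carries fatty acids into mitochondria, held 15 loci with 47.9 CPM ± 3.91, and Xkr4 held 10 with 41.8 CPM ± 6.27. Dnmt3a, the de novo DNA methyltransferase, held 5 loci with 9.23 CPM ± 1.93, and 1 of them, chr12:3849195-3850161 over a coding exon, was called higher after MS over genotypes (0.43, SE 0.16, edgeR adjusted p = 0.241). In Dtnb, which encodes a dystrobrevin, 1 of 7 loci was called lower after MS (chr12:3654660-3655350, -0.64, SE 0.16, edgeR adjusted p = 0.0979), and in Plag1, a zinc finger transcription factor, 1 of 4 (chr4:3919437-3920231, -0.46, SE 0.14, edgeR adjusted p = 0.168). In Cdk6 2 of 27 loci were called higher, with 0.29 and 0.28. Insr, Lyn and Patz1 held 3, 4 and 2 loci with 0 called in the 8 comparisons, and Pomc and Hnf4g held 0 loci.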

How the data were processed

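The deposited table holds raw read counts per merged peak for 48 libraries, made by the authors from paired-end MBD-seq reads mapped with Bowtie2 2.1.0 to GRCm38.p5, MACS peaks and DiffBind 2.0.9. The treatment of duplicate or multiply mapped reads is not given in the sources used here. Here counts were fitted over all loci with edgeR 4.0.16 (TMM, quasi-likelihood, Benjamini-Hochberg adjustment) in 46 libraries with 6 group means and 8 contrasts, and SE is the fold change over the root of F. Late C libraries (numbers 42 to 48) were compared with early ones (1 to 17) with genotype as a covariate. DESeq2 1.42.0 was the main alternative. The fit was tested on simulated data. CPM used TMM over all 48 libraries, and log2 levels a pseudocount of 0.1 CPM. Features came from the GRCm38.p6 reference and GENCODE annotation, and places refer to a locus midpoint. Copies were sought with minimap2 2.31 (asm10, up to 20 per locus). All 168 pairs of libraries within groups differed beyond sampling noise, with a chi-square per locus of 2.05 to 12.6 and 0 identical pairs.

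The members and lists were chosen with earlier results of these data known. Named loci are, per contrast, up to 5 with the smallest p among those of adjusted p under 0.05, otherwise the 1 with the smallest p, then the 5 densest and 3 least dense in counts per kb, the locus nearest to each chromosome end, the widest, the 3 most variable in C libraries, and loci in 13 listed genes. The 4 loci of highest mean count, those sharing 21-mers with the array, the 21-base repeat loci, the GE1 values of the chromosome 12 locus and the next-ranked MS loci were named after their values were seen.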

Additional observations from a re-analysis of the deposited data

Results flagged for a closer look

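In the 15 levels examined by group, 11 of 90 groups had a library whose gap to its nearest neighbor exceeded Dixon's 95% limit, where chance alone flags about 1 in 20 groups. No explanation was tested for any of them.

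The highest library stood apart in Tph2+/+ MS at chr16:3244602, with 7.18 CPM against 4.25 for the next, at chr1:3583857, with 1.87 CPM against 1.29, and at chr6:3200331, with 306 CPM against 133.3. In Tph2+/- C replicate 7 stood apart at chr16:3120309, with 4.55 CPM against 2.65, and at both chromosome 10 tandem repeat loci, with 1037 CPM against 575 at chr10:3110860 and 196 CPM against 114 at chr10:3109025. In Tph2+/- MS replicate 1 stood apart at chr11:3180545 in Sfi1, with 1115 CPM against 892, and at chr6:3200331, with 171 CPM against 103.2. In Tph2-/- MS replicate 3, which was not in the fits, stood apart at chr12:3109342, with 5884 CPM against 3374, and in the summed level of all chromosome-end loci, with 19288 CPM against 14140, although its share of counts at these loci, 1.10%, was the lowest of all 48 libraries. The only low library was Tph2-/- C replicate 4 at chr6:3298791, with 0.505 CPM against 1.78 for the next.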

How the results depend on the processing

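Of 190 values recomputed for the counts and levels under the alternatives, 160 kept within 1.5 times (counts) or 1 SD (levels) of the main value. For MS over genotypes the number called (60, all loci 3.63%) became 108 with all 48 libraries (all loci 5.79%) and 25 without libraries 18 to 26 (1.26%). It became 36 with a term for late C libraries (2.39%) and 38 with positions below 3500000. Chosen after seeing the data, it was 38 without loci that have a copy and 37 without those within 250000 bases of the end. The 2 at an adjusted p under 0.05 became 11 with DESeq2, 0 without libraries 18 to 26, 0 with the term for late C libraries, and 1 each with the CpG density offset, with replicate 2 rather than 7 of Tph2-/- MS omitted beside 3, without loci that have a copy and without those near the end. DESeq2 gave no adjusted p for either of the 2 loci. The share of all loci at the adjusted limit in DESeq2 was not determined, so that its 11 cannot be set against it. The called loci in Tph2+/+ (22) became 41 with the CpG offset (all loci 3.16%) and 14 below 3500000. Those in Tph2-/- (20) became 80 with all libraries (all loci 5.37%), 11 with the other replicates left out (0.855%) and 8 below 3500000. Those for Tph2-/- against Tph2+/+ (6) became 13 with all libraries (all loci 1.04%), and for Tph2+/- against Tph2+/+ (4) 7 without libraries 18 to 26 (0.738%) and 2 below 3500000. Those for GE1 (10) became 6 with all libraries (all loci 0.548%), 24 with the CpG offset (1.58%) and 5 below 3500000. For GE2 the count (4) became 9 with the other replicates left out (0.600%) and 0 below 3500000. Late against early C libraries gave 16 with DESeq2 in place of 9 at the adjusted limit, again without a share of all loci. The summed level of 12094 CPM became 219591 when the chromosome 9 rule was read the other way, which adds the array, 9511 below 3500000, and 6696 without the 4 most abundant loci. Fewer loci are counted under the narrower position limits, and the share called among them was not determined. For the other alternatives the cause was not tested.

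The replicate number as a block gave 70 called for MS over genotypes (all loci 3.68%) and moved no count by over 1.5 times. The numbers do not pair the libraries: deviations of same-numbered libraries had a median correlation of 0.0129 (-0.159 to 0.244, 110 pairs) against -0.000878 for others, and 8 of 46 libraries correlated best with their own number. Leaving out each single library was not run. The median locus had 28.5 counts per library, which limits what can be detected.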

Other observations

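The 3 loci that varied most between the 24 C libraries had an SD of 0.963, 0.941 and 0.924 on the log2 CPM scale, against a median of 0.389 over the chromosome-end loci and of 0.394 over other autosomal loci. They were chr8:3332335-3333180 between genes, chr16:3345413-3346257 next to the predicted gene Gm49504, and chr2:3356834-3357435 in an intron of Olah, which encodes a thioesterase. Their mean counts of 19.9, 18.8 and 14.5 per library were low. The least dense loci beside the chromosome 3 repeat locus were on chromosomes 18 and 19, with 17.9 counts per kb each.

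The loci nearest to the chromosome ends ranged widely in CpG density. At chr2:3049956-3050757 it had 2.64 CpG per kb and 48.4 counts per kb, at chr4:3049967-3055786 5.53 CpG per kb and 47.5 counts per kb, and at chr7:3000937-3003350 24.9 CpG per kb, 17 copies elsewhere and 54.0 counts per kb. At chr12:3001858-3005575 it had 28.5 CpG per kb and 84.8 counts per kb. Over the 19 autosomes these nearest loci had mean counts of 17.5 to 1171 per library.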
